A study of Mus musculus with 18 samples.

Results

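Cell line 4716-11 is a Type D small cell lung cancer (SCLC) line from a mouse tumor, 1 of the 3 Type D lines in which RNA was sequenced after Cas9 targeting of Ppia, the gene for cyclophilin A. Its members were the 6 samples of this line among 18: 3 Control samples and 3 Restored samples, paired by sgRNA. The other 12 samples came from lines 4711-1 and 4711-18, 6 from each, and served as the comparison. The tumors arose after adenoviral Cre in mice with Rb1 flox/flox and Rbl2 flox/flox alleles that also carried Trp53 XTR/XTR and Rosa26 FlpO-ER. By this design Cre deletes Rb1 and Rbl2, and the paper reports that its tumor-derived lines lacked RB. Loss of Rbl2 was not checked here. In all samples Trp53 starts out silenced by a gene trap that FlpO can excise. Control cells received vehicle (ethanol) and Restored cells 500 nM 4-hydroxytamoxifen (4-OHT), which activates FlpO-ER and returns Trp53 to expression, for 3 days (72 h).

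In each line 1 culture carried an sgRNA against β-Gal (sgBgal), 1 carried sgPpia#3.2 against exon 3 of Ppia and 1 carried sgPpia#4.1 against exon 4. The 3 cultures of 4716-11 are therefore replicates of the line that differ in sgRNA, and the labels name no further cultures. P-values then measure the spread between such cultures. The sgRNAs are themselves a treatment, and the paper reports weaker enrichment of p53 pathway genes after restoration with Ppia targeting. Any such effect would lie within this spread. A difference between 4716-11 and the others is a difference between 1 line and 2 lines, and whether other Type D lines would fall on either side was not tested.

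p53 is a transcription factor that is silent or low in unstressed cells and, once active, raises genes that stop the cell cycle (Cdkn1a), limit p53 itself (Mdm2) or kill the cell (Bbc3, Pmaip1, Fas). Genes of mitosis fall after p53 activation mostly through repressor complexes that contain retinoblastoma family proteins and the DREAM complex, not by p53 binding to them. SCLC is a lung cancer of neuroendocrine character in most patients.

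Values are TPM, a transcript abundance scaled to a fixed total per sample, as deposited. A response is the Restored minus Control difference of log2(TPM + 1) within a culture, averaged over the 3 cultures of a line, and it understates the change of genes at low TPM. Genes were called where the limma adjusted p was under 0.05 and the absolute value at least 1. Of 25239 genes in the table, 12828 reached at least 1 TPM in at least 3 samples and were tested. Between 16342 and 18752 genes were above 0 in a sample, and read depth cannot be read from TPM. The median response of all genes was 0.15 in 4716-11, 0.13 in 4711-1 and 0.22 in 4711-18, and rescaling by median-of-ratios factors brought each to within 0.02 of 0.

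Defining neuroendocrine markers were near 0 in 4716-11, against its label of SCLC. Chga did not exceed 0.124 TPM and Calca 0.0181 TPM in any of its 6 samples. Insm1 reached at most 0.069 TPM in 4716-11 and up to 3.37 TPM in the other lines. Syp was at 4.24 to 7.12 TPM and Ncam1 at 13.5 to 17.3 TPM. Neurod1 and Pou2f3, which mark other SCLC subtypes, stayed at or under 0.156 TPM, whereas Yap1 was at 63.2 to 86.0 TPM. Of the epithelial markers, Krt8 was at 5417 to 5808 TPM in Control and 2149 to 2418 TPM in Restored samples, and Epcam stayed at or under 0.131 TPM. The 6 immune markers summed to 0.177 to 0.356 TPM, the 4 fibroblast markers to 0.0577 to 0.179 TPM and the 4 endothelial markers to 0.297 to 1.46 TPM over the 6 samples.

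Trp53, the restored gene, reached similar levels in the 3 lines. Trp53 was at 7.45, 7.1 and 7.24 TPM in the Control and at 218, 236 and 217 TPM in the Restored samples of 4716-11 (sgBgal, sgPpia#3.2 and sgPpia#4.1 in this and all later triplets). In the other lines it ran from 5.45 through a median of 7.05 to 8.41 TPM in Control and from 181 through 210 to 223 TPM in Restored samples. The responses of 4.76, 4.81 and 4.62 in 4716-11, 4711-1 and 4711-18 differed by 0.05 between 4716-11 and the mean of the others (SE 0.11, limma adjusted p = 0.84). Ppia was at 2849, 1207 and 1952 TPM in Control and 2730, 1233 and 1765 TPM in Restored samples, lower with both Ppia sgRNAs and lowest with sgPpia#3.2.

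Canonical p53 targets rose in all 3 lines. Cdkn1a, which encodes the cyclin-dependent kinase inhibitor p21, rose from 107, 101 and 117 TPM to 2158, 2124 and 2306 TPM in 4716-11, a response of 4.33 (SE 0.27, limma adjusted p = 3.3e-06) against 3.98 and 3.94 in the other lines. Its response in 4716-11 exceeded the mean of the others by 0.36 (SE 0.33, limma adjusted p = 0.60), which did not pass the threshold. Mdm2, the ubiquitin ligase that restrains p53, rose by 3.94, 3.94 and 4.10. In a list of 40 core p53 targets, 34 rose in 4716-11, 33 in 4711-1 and 33 in 4711-18, and none fell. The median response of the 40 was 2.42, 2.14 and 2.70. For the difference between 4716-11 and the others 0 of the 40 were called, beside 0.998% higher and 0.359% lower of all genes. At such shares a count of 0 says little of a list this short. The median difference was 0.09 (-0.0023 to 0.15 with cultures left out, lowest without the sgPpia#4.1 culture of 4711-1). Over all genes, 7.77% were called up in 4716-11, 5.71% in 4711-1 and 9.43% in 4711-18.

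The promoter of Cdkn1a, shown as an example, holds 2 matches to the p53 half-site consensus within 100 bases before the start used. The stretch shown lies at chr17:29090879-29090978 on the plus strand (GRCm38.p6, RefSeq). Where a gene has several RefSeq promoters, here and below, the one with the most matches is shown. Matches are of sequence alone, and p53 binding at them was not tested. Capitals mark the matches, which begin 73 and 51 bases before the start.
Cdkn1a: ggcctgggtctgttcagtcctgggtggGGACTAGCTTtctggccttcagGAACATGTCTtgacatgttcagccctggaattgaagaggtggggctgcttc
Of all 32851 RefSeq promoters, 7.13% held a half-site in the 250 bases before the start, and so did 20.8% of the 48 promoters matched to 33 of the 40 core targets. The half-site reads the same on both strands, so each match counts once.

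The 3 cultures of 4716-11 responded more alike than those of the other lines. Across genes, which are not independent, the responses of its cultures correlated at r = 0.90 to 0.92, those of 4711-1 at 0.79 to 0.86 and those of 4711-18 at 0.67 to 0.93. The median SD between the 3 cultures was 0.118 in 4716-11, 0.192 in 4711-1 and 0.235 in 4711-18. In 4711-18 the sgPpia#3.2 culture stood apart from the others. The counts for the difference and the medians of the mitosis, DNA replication and sterol lists and of Modules 1, 3 and 5 are given below without it as well.

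Of the genes tested, 997 rose and 393 fell (3.06%) in 4716-11, and 996 and 393 of these moved the same way in 3 of 3 cultures. In 4711-1, 733 rose and 380 fell (2.96%), and in 4711-18, 1210 rose and 544 fell (4.24%). The balance of rises and falls depended on the scaling. After median-of-ratios rescaling 748 rose and 567 fell in 4716-11, 580 and 464 in 4711-1 and 763 and 807 in 4711-18, so that falls outnumbered rises in the last. Of the 997 genes that rose in 4716-11, 490 (49.1%) also rose in both other lines, 234 with 4711-18 only and 58 with 4711-1 only. The remaining 215 (21.6%) passed in neither other line. Of the 393 that fell, 206 (52.4%) fell in both other lines and 93 (23.7%) in neither. No gene was called in opposite directions in 4716-11 and 4711-1, and 1 was in 4716-11 and 4711-18. Passing in 1 line and not in another does not show a difference, so the difference of the responses was tested next.

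The response of 4716-11 was higher than the mean of the other lines for 128 genes (0.998%) and lower for 46 (0.359%), and after rescaling for 146 and 47. At an unadjusted p under 0.05 the number was 2496. Against 4711-1 singly, 142 genes were higher (1.11%) and 44 lower (0.343%). Against 4711-18 singly, 210 were higher (1.64%) and 88 lower (0.686%). For 55 of the 128 and 8 of the 46 the difference was called against the mean and against each line singly, 63 genes in all. Of the 111 others, 72 passed against 4711-18, 33 against 4711-1 and 6 against neither. Of the 128, 20 reached the minimum of 1 TPM in 3 samples only through the Restored samples of 4716-11, 15 of the 55 among them. Of the 46, 3 did so only through its Control samples, and of the 8, Gng2 and Urad. Such genes entered the test through the group where they were high, so their calls are given as descriptions. Without the sgPpia#3.2 culture of 4711-18 the counts against the mean were 213 and 108, and those against each line singly 79 and 29. The counts fell without the sgPpia#4.1 cultures of all lines, to 15 and 4 against the mean and to 0 and 0 against each line singly, and without the sgBgal cultures of all lines the latter were 9 and 2. Leaving out 1 culture of 4716-11 left 58 to 63 genes higher and 14 to 24 lower against the mean. Without culture as a term in the fit they were 84 and 24. Of 45 called differences of genes named here, 21 kept the call without the sgBgal cultures of all lines, 42 without the sgPpia#3.2 cultures and 13 without the sgPpia#4.1 cultures, with 2 cultures per line then left. Ces2f, Nectin4, Ptprv, Inpp5d, Mmp15, Krt7, Mfsd2a, Gng2, Abcg1, Dscaml1 and Vcan were the 11 that kept it in all 3 cases. Ces2e, Tekt4, Ppef1, Ms4a10, Sp9, Wnt4, Krt5, Resp18 and Ptp4a3 lost it without the sgPpia#4.1 cultures, Klhdc7a without these or the sgPpia#3.2 cultures, Aldh1l1 and Kcnab2 without the sgBgal cultures, and Tnfrsf18, Pcdh7, Anxa10, Zfp750, Pparg, Angptl4, Cyp2s1, C4bp, Cdh17, Cxcl5, Mybl2, Lama3, Ifitm3, Glyat and the 6 mitosis genes named below without the sgBgal or the sgPpia#4.1 cultures. St14 and Fabp4 lost it in each of the 3 cases. Of the 11 that kept the call, Gng2 passed the minimum only through Control 4716-11 samples, so its call remains a description. Abcg1, Dscaml1 and Vcan, also among the 11, did not pass against both lines singly. With cultures left out in turn, the difference ranged from 3.01 to 3.40 for Ces2e and from 3.05 to 3.47 for Tekt4. It came down to 0.79 for Lama3, and to -0.91 and -0.88 for Cdh17 and Pparg.

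**Figure D1:**
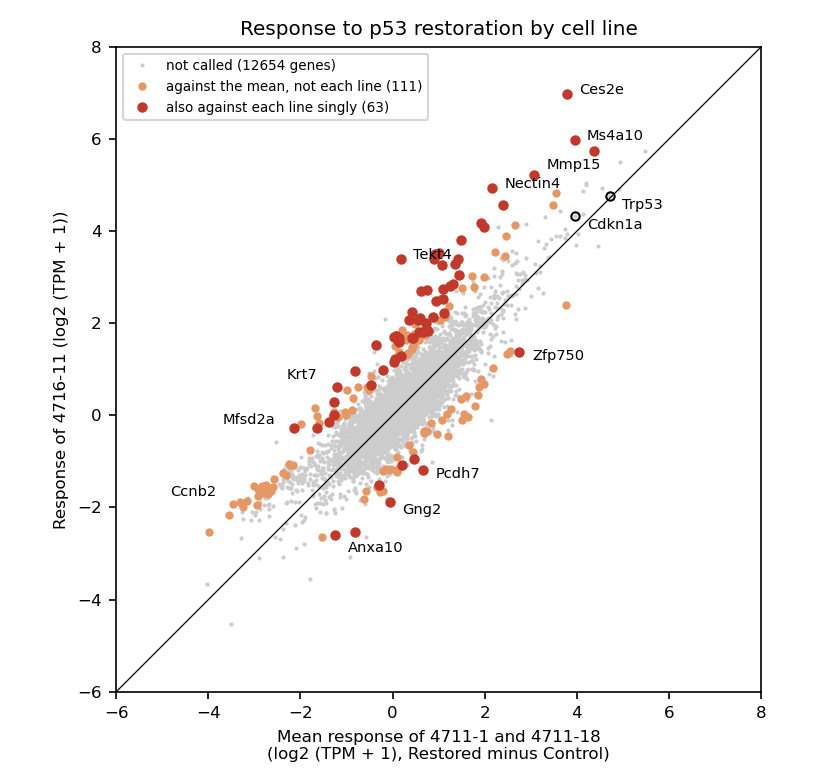
Response to p53 restoration of 12828 genes in 4716-11 (vertical axis) against the mean of 4711-1 and 4711-18 (horizontal axis), both on the log2(TPM + 1) scale; the diagonal marks equal responses. Red points are the 63 genes called against the mean and against each other line, orange points the 111 called against the mean but not against both lines singly, and Trp53 and Cdkn1a (open circles) lie close to the diagonal.

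Among genes that rose far more in 4716-11 was Ces2e, which encodes a carboxylesterase. It had the largest rise of any gene in 4716-11, from 2.61, 2.88 and 2.75 TPM to 517, 439 and 455 TPM. In the other lines it rose from 0.416 through a median of 1.13 to 2.84 TPM, to 21.4 through 24.1 to 70.2 TPM. The Restored samples of 4716-11 thus lay above every Restored sample of the other lines, while the Control samples overlapped. The response was 6.97 in 4716-11, 4.26 in 4711-1 and 3.30 in 4711-18, a difference of 3.20 (SE 0.34, limma adjusted p = 0.0016). Its neighbor in the carboxylesterase family, Ces2f, reached 11.6, 9.81 and 9.71 TPM in Restored 4716-11, 1.37 to 2.23 TPM in Restored 4711-1 and 0.235 to 0.438 TPM in Restored 4711-18, from at most 0.199 TPM in any Control sample. The difference for Ces2f was 2.48 (SE 0.14, limma adjusted p = 9.8e-05). Reads of similar carboxylesterase genes may be shared between them, so the split between Ces2e and Ces2f is uncertain.

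Nectin4, an adhesion molecule of epithelial junctions, was near 0 in every Control sample and separated the lines after restoration. In 4716-11 it rose from 0.448, 0.428 and 0.272 TPM to 40.9, 40.2 and 42.9 TPM. In the other lines it reached 2.74 through 3.7 to 6.95 TPM. The difference of responses was 2.77 (SE 0.16, limma adjusted p = 9.8e-05), with 2.5 against 4711-1 and 3.04 against 4711-18. Ptprv, a receptor-type tyrosine phosphatase, showed the same order at lower levels. It was at 12.8, 10.6 and 9.36 TPM in Restored 4716-11 and at 0.66 through 1.07 to 1.82 TPM in the other Restored samples, a difference of 2.59 (SE 0.13, limma adjusted p = 8.3e-05).

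Tekt4, a tektin of ciliary and flagellar microtubules, had the largest difference of all genes and rose in 4716-11 alone by the call. It went from 1.2, 0.961 and 0.794 TPM to 20.2, 20.4 and 19.2 TPM. In 4711-1 it stayed at or under 0.168 TPM in all 6 samples. In 4711-18 it was at 0.91, 4.82 and 1.09 TPM in Restored against 1.18, 1.34 and 1.29 TPM in Control samples, so that only the sgPpia#3.2 culture rose there. The difference was 3.22 (SE 0.30, limma adjusted p = 0.00079).

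**Figure D2:**
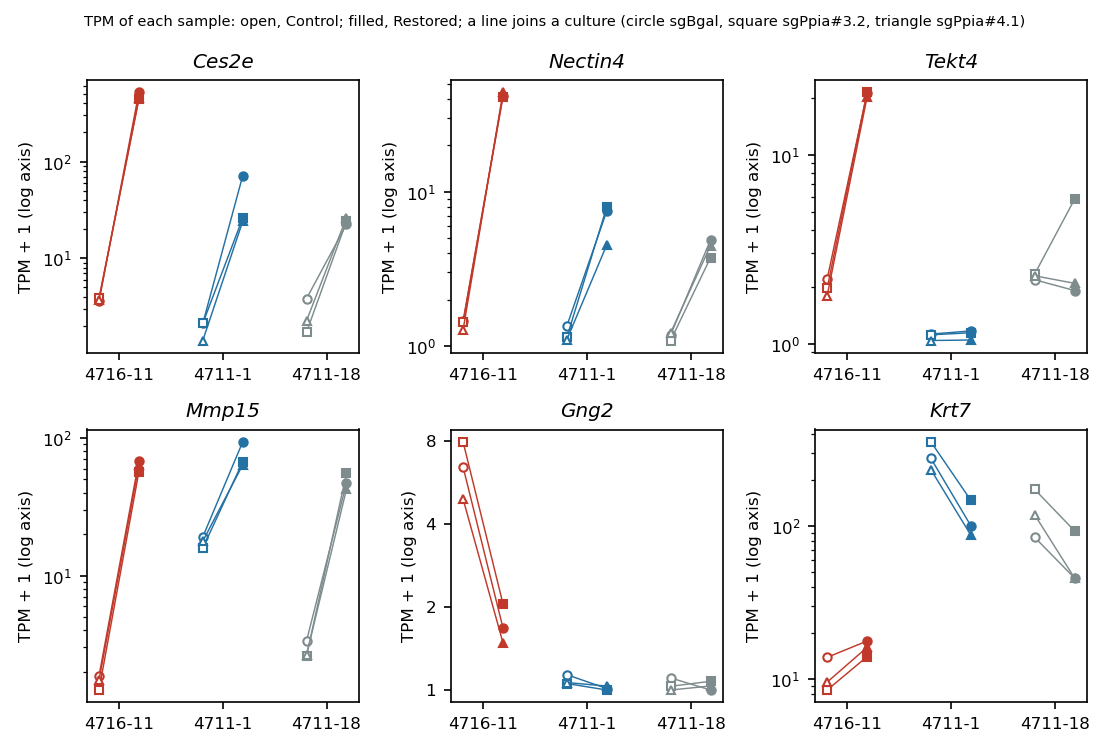
TPM + 1 on log axes for 6 genes in all 18 samples, with Control as open and Restored as filled symbols and a line joining the samples of a culture. Ces2e, Nectin4 and Tekt4 end higher in 4716-11 than in the other lines, and Mmp15 starts lower and ends alike. Gng2 starts higher and falls. Krt7 starts far lower and ends a little higher, short of a call, where the other lines fall.

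Inpp5d, the lipid phosphatase SHIP1, rose to 17.2, 15.8 and 14 TPM in 4716-11, to 2.68 to 4.17 TPM in 4711-1 and to 0.793 to 1.24 TPM in 4711-18 (difference 2.32, SE 0.15, limma adjusted p = 0.00017). Ppef1, a protein phosphatase with calcium-binding domains and a member of the study's Module 5, rose to 29.0, 28.4 and 31.9 TPM against 1.94 through 5.89 to 11.2 TPM elsewhere (difference 2.26, SE 0.19, limma adjusted p = 0.00057). Both were under 2 TPM in every Control sample, and the Restored samples of 4716-11 did not overlap the others. Ms4a10, a membrane-spanning protein and the other Module 5 member called, rose to 109, 81.6 and 106 TPM against 9.45 through 21.5 to 32.6 TPM elsewhere. Klhdc7a, a kelch domain protein, rose to 32.0, 25.5 and 27.6 TPM against 2.95 through 4.4 to 14.2 TPM elsewhere. Their differences were 2.02 (SE 0.30, limma adjusted p = 0.0097) and 2.17 (SE 0.33, limma adjusted p = 0.012).

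A larger response was not always joined by a higher level after restoration. Mmp15, a membrane-type matrix metalloproteinase, ended at 67.2, 56.0 and 62.6 TPM in 4716-11 and at 41.5 through 58.5 to 92.7 TPM in the other lines, which overlap. It started at 0.863, 0.472 and 0.73 TPM in 4716-11, at 14.8 to 18.1 TPM in 4711-1 and at 1.61 to 2.35 TPM in 4711-18. The difference of responses was 2.15 (SE 0.15, limma adjusted p = 0.00024), that of the Control level -2.07 and that of the Restored level 0.08. Tnfrsf18, the tumor necrosis factor receptor family member GITR, likewise started lower in 4716-11, at 3.28, 2.74 and 4.41 TPM against 5.12 through 11.7 to 21.4 TPM, and ended at 76.6, 68.3 and 77.6 TPM against 25.1 through 51.9 to 80.1 TPM. Ptp4a3, which encodes the phosphatase PRL-3 and had the fourth largest rise in 4716-11, ended at 257, 220 and 248 TPM within the range of the others (206 to 260 TPM) from a lower start. Its difference was 1.36 (SE 0.13, limma adjusted p = 0.00091), and that of Tnfrsf18 was 2.09 (SE 0.23, limma adjusted p = 0.0016).

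Of the 55 genes higher against each line, 23 were called in 4716-11 and in neither other line, 13 rose in all 3 lines and rose more in 4716-11, and 6 fell in both other lines and were not called in 4716-11. The other 13 fell in none of these classes. The 23 included Sp9, Wnt4 and Krt5, which are among the 15 that passed the minimum only through Restored 4716-11 samples. Sp9, a zinc finger factor, rose to 7.65, 5.97 and 4.86 TPM against 0.219 through 0.444 to 1.78 TPM elsewhere (difference 2.08, SE 0.21). Wnt4, a secreted Wnt ligand, rose from 0.419, 0.282 and 0.283 TPM to 2.3, 2.59 and 3.71 TPM while the other lines ended at 0.104 through 0.193 to 0.308 TPM (difference 1.88, SE 0.19). Krt5, the keratin of basal epithelial cells, rose to 4.21, 3.63 and 3.6 TPM against 0.126 through 0.679 to 0.948 TPM (difference 1.25, SE 0.11). Aldh1l1, an enzyme of folate metabolism, is among the 13 in none of these classes. It rose to 16.4, 13.5 and 16.8 TPM, which overlaps 4711-1 (14.1 to 22.6 TPM after restoration, 4.22 to 10.9 TPM before). It lay above 4711-18 (at most 1.02 TPM). Its difference of 2.52 (SE 0.22, limma adjusted p = 0.00068) thus set a start near 0 against a raised start in 4711-1 and a low end in 4711-18.

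Of the promoters of the 55 genes, 48 matched RefSeq entries of 40 genes, and 5 of these (10.4%) held the p53 half-site in the 250 bases before the start, against 7.13% of all promoters. They belong to Kcnab2, Krt5, Glyat, Ifitm3 and Klhdc7a. Without the 15 genes that passed the minimum only through Restored 4716-11 samples, Krt5 and Ifitm3 among them, 3 of 34 promoters (8.82%) held it. The half-site of Klhdc7a, shown because its response was the largest of the 5, begins 230 bases before the start, at chr4:139968177-139968276 on the minus strand (GRCm38.p6). Capitals mark it.
Klhdc7a: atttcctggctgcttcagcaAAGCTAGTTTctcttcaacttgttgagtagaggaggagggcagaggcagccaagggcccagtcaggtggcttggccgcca
The promoters of Ces2e, Ces2f, Nectin4, Inpp5d, Ppef1, Ms4a10, Sp9, Wnt4 and Tekt4 held no half-site in this window.

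**Figure D3:**
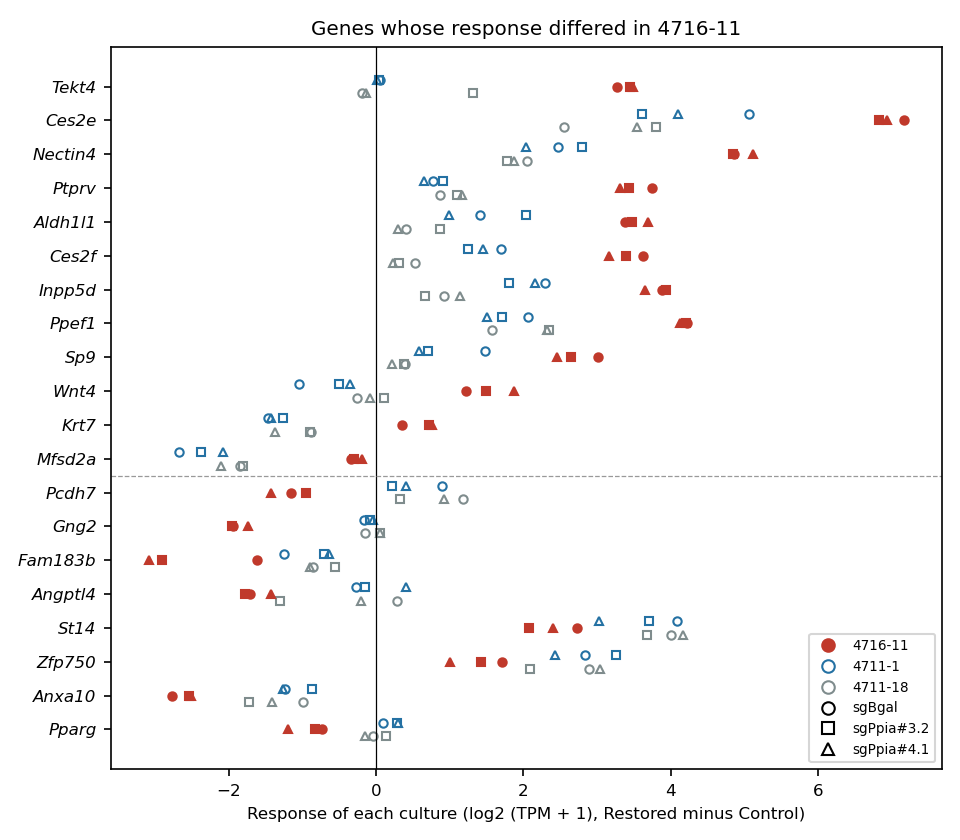
Response of each of the 9 cultures for 20 genes called for the difference, on the log2(TPM + 1) scale; filled red symbols are 4716-11, open blue 4711-1 and open grey 4711-18, and the symbol shape gives the sgRNA. Above the dashed line the 3 values of 4716-11 lie to the right of all 6 others, and below it to the left.

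Some genes fell in the other lines and did not fall in 4716-11. Krt7, a keratin of simple epithelia, went from 12.9, 7.53 and 8.6 TPM to 16.8, 13.1 and 15.2 TPM in 4716-11. In 4711-1 it fell from 276, 354 and 233 TPM to 99.8, 147 and 86.4 TPM and in 4711-18 from 83.6, 173 and 118 TPM to 44.9, 92.2 and 44.9 TPM. The difference was 1.83 (SE 0.15, limma adjusted p = 0.0005), yet Krt7 stayed lower in 4716-11 in both states, by 4.15 before and 2.32 after restoration on the log2 scale. Mfsd2a, a lipid transporter, fell from 2.8 through 4.93 to 9.36 TPM to at most 0.726 TPM in the other lines and was under 0.5 TPM throughout in 4716-11 (difference 1.86, SE 0.14, limma adjusted p = 0.00033). C4bp, a complement regulator, stayed between 0.503 and 0.967 TPM in 4716-11 and fell from 1.02 to 4.05 TPM to 0.265 to 1.34 TPM elsewhere. Mfsd2a and C4bp were already under 1 TPM in 4716-11, where a fall can hardly show on the log2(TPM + 1) scale.

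Cyp2s1, a cytochrome P450 of the study's Type D signature, was in contrast high before restoration in 4716-11 and kept its level. It was at 177, 125 and 216 TPM in Control and 177, 148 and 215 TPM in Restored samples. In 4711-1 it fell from 55.5 to 106 TPM to 21.2 to 40.3 TPM, and in 4711-18 from 104 to 201 TPM to 36.5 to 134 TPM. The difference was 1.35 (SE 0.24, limma adjusted p = 0.021), with 1.58 against 4711-1 and 1.12 against 4711-18, the second short of the threshold (limma adjusted p = 0.051).

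Genes with a lower response in 4716-11 were fewer. Pcdh7, a protocadherin, fell in 4716-11 from 7.68, 6.3 and 6.73 TPM to 2.9, 2.77 and 1.89 TPM, whereas each of the other 6 cultures had more after restoration (7.85 through 11.7 to 23.1 TPM) than its own Control sample. The response was -1.18 in 4716-11, 0.51 in 4711-1 and 0.81 in 4711-18, a difference of -1.83 (SE 0.22, limma adjusted p = 0.0028). Gng2, a G protein gamma subunit, was found above 1 TPM in 4716-11 only, at 5.42, 6.92 and 3.92 TPM in Control and 0.679, 1.05 and 0.482 TPM in Restored samples. The other 12 samples held at most 0.136 TPM, so no fall could be seen there, and the difference of -1.82 follows from expression in 1 line. Anxa10, an annexin, fell in all lines and furthest in 4716-11, from 41.1, 31.7 and 29.9 TPM to 5.16, 4.66 and 4.45 TPM, with a response of -2.60 against -1.12 and -1.37.

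Zfp750, a zinc finger factor of epidermal differentiation, rose in all lines and less in 4716-11. It reached 2.53, 1.84 and 1.04 TPM against 3.73 through 6.74 to 9.1 TPM in the other lines, from at most 0.137 TPM in any Control sample. The difference was -1.37 (SE 0.26, limma adjusted p = 0.025). St14, the membrane protease matriptase, also rose less, to 6.27, 3.88 and 5.1 TPM against 9.42 through 18.0 to 20.8 TPM (difference -1.37, SE 0.24, limma adjusted p = 0.018; -1.20 against 4711-1, limma adjusted p = 0.053). In the list of 25 epithelial and keratinocyte genes tested, 9 rose and 3 fell in 4716-11, 6 and 5 in 4711-1 and 10 and 5 in 4711-18. Over all genes 7.77%, 5.71% and 9.43% rose and 3.06%, 2.96% and 4.24% fell. Krt7, Krt5 and Lama3, a laminin chain, were called higher for the difference and St14 and Zfp750 lower, beside 0.998% and 0.359% of all genes. Krt5 is among the genes that passed the minimum only through Restored 4716-11 samples.

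Pparg, a nuclear receptor that governs fat cell differentiation and a member of the Type D signature, had a lower response in 4716-11. It went from 196, 199 and 186 TPM to 118, 112 and 81.3 TPM there, from 223, 230 and 383 TPM to 239, 280 and 471 TPM in 4711-1 and from 110, 131 and 109 TPM to 107, 144 and 98.3 TPM in 4711-18. All 3 cultures of 4716-11 ended below their Control samples, and the difference of responses was -1.02 (SE 0.13, limma adjusted p = 0.0045). Pparg did not pass against both lines singly. Angptl4, which encodes a secreted inhibitor of lipoprotein lipase, fell from 53.9, 52.0 and 45.5 TPM to 15.7, 14.4 and 16.3 TPM in 4716-11 and had responses of -0.01 and -0.41 in 4711-1 and 4711-18. Fabp4, a fatty acid binding protein, fell from 2.7, 3.84 and 5.76 TPM to 0.924, 0.348 and 0.493 TPM and had responses of -0.51 and -0.03. Their differences were -1.43 (SE 0.31, limma adjusted p = 0.042) and -1.39 (SE 0.26, limma adjusted p = 0.023), and neither passed against both lines singly.

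Abcg1, a sterol exporter, Dscaml1, an adhesion molecule, and Vcan, the matrix proteoglycan versican, rose in 4711-18 and were near 0 in 4716-11 in both states. Dscaml1 was at most 0.404 TPM in 4716-11, rose from 0.613 to 0.988 TPM to 9 to 9.1 TPM in 4711-18 and from 17.6 to 25.9 TPM to 40.1 to 49.5 TPM in 4711-1. Abcg1 was at most 0.103 TPM in 4716-11 and rose to 15.6 to 31.7 TPM in 4711-18, and Vcan at most 0.155 TPM and 10.5 to 13.1 TPM. Their differences of -1.58, -1.67 and -1.52 were larger against 4711-18 (-2.31, -2.58 and -2.27) than against 4711-1 (-0.85, -0.76 and -0.77).

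The lines differed before restoration as well. In Control samples 247 genes were higher (1.93%) and 412 lower (3.21%) in 4716-11 than in the mean of the other lines, and in Restored samples 411 were higher (3.2%) and 510 lower (3.98%). After rescaling these counts were 330 and 364 in Control and 525 and 381 in Restored samples, where the balance turned. Of the 128 genes with a higher response, 80 were also higher in level after restoration and 23 were lower in level before it. Of the 46 with a lower response, 26 were lower after restoration and 8 were higher before it. Among the 55 genes higher against each line, the Control level was not called for 42 and was lower for 13, and the Restored level was higher for 40 and lower for 3. Of the 8 genes lower against each line, the Control level was higher for 4 and the Restored level lower for 2.

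**Figure D4:**
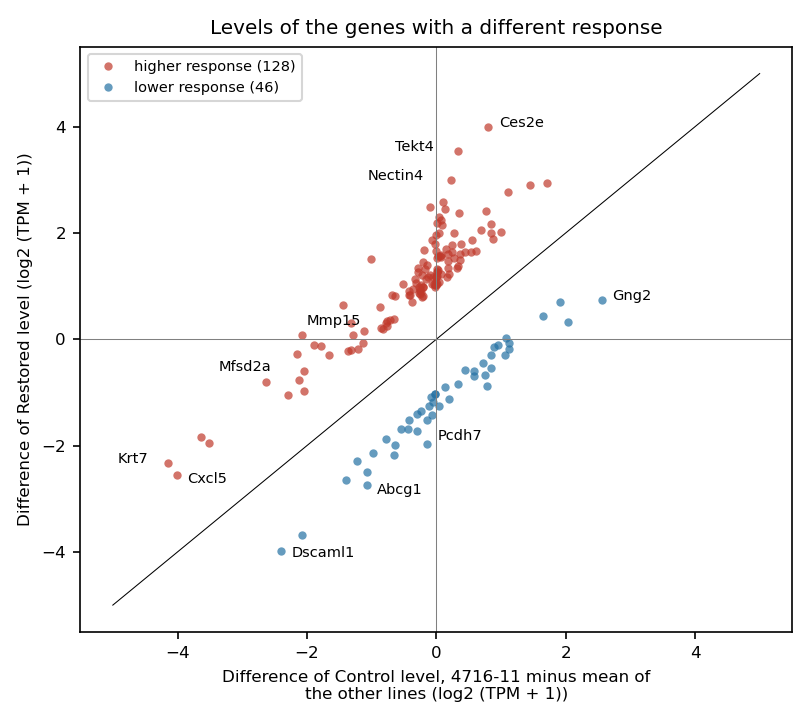
Difference of level between 4716-11 and the mean of the other lines, before restoration (horizontal axis) and after it (vertical axis), on the log2(TPM + 1) scale, for the 128 genes with a higher response (red) and the 46 with a lower response (blue). Tekt4 and Nectin4 lie near 0 and Ces2e at 0.81 before restoration, all far above 0 after it, while Krt7, Cxcl5 and Mfsd2a lie far below 0 before restoration.

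Mitosis genes fell in all lines and least in 4716-11. In a list of 32, 31 fell in each line, and the median response was -1.58 in 4716-11, -2.22 in 4711-1 and -3.08 in 4711-18, beside medians of 0.15, 0.13 and 0.22 and shares that fell of 3.06%, 2.96% and 4.24% over all genes. The difference from the mean of the other lines was above 0 for 32 of 32 members (6111 of 12828 over all genes) with a median of 1.01 (1.15 without the sgPpia#3.2 culture of 4711-18), and 13 of the 32 were called, beside 0.998% of all genes. Against 4711-1 singly, 0 of the 32 were called at a median difference of 0.66, beside 1.11% of all genes. Against 4711-18 singly 26 were called at a median of 1.42, beside 1.64% of all genes. The count was 23 without the sgPpia#3.2 culture of 4711-18, and 0 without the sgBgal cultures of all lines or without the sgPpia#4.1 cultures of all lines. It was 1 without any single culture of 4716-11 and 1 without culture as a term in the fit.

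Ccnb2, a mitotic cyclin, shows the order. It fell from 173, 171 and 160 TPM to 47.0, 43.7 and 39.1 TPM in 4716-11, from 178, 181 and 153 TPM to 29.0, 29.9 and 14.5 TPM in 4711-1 and from 174, 84.4 and 163 TPM to 6.18, 5.72 and 8.43 TPM in 4711-18. The Control samples overlapped, and the Restored samples of 4716-11 lay above all others. The difference was 1.54 (SE 0.23, limma adjusted p = 0.01), with 0.88 against 4711-1 (limma adjusted p = 0.13) and 2.20 against 4711-18 (limma adjusted p = 0.0028). Plk1, the polo-like kinase of mitotic entry, went to 37.6, 29.5 and 26.4 TPM in 4716-11, 19.6, 19.9 and 8.28 TPM in 4711-1 and 5.69, 4.67 and 6.5 TPM in 4711-18. Ccna2 and Ccnb1, cyclins of S phase to mitosis and of mitosis, Cenpf, a kinetochore protein, and Kif20a, a kinesin of cytokinesis, had differences of 1.43, 1.30, 1.46 and 1.31. The Control sample of the 4711-18 sgPpia#3.2 culture was low for these genes already (Plk1 53 TPM against 168 and 157 TPM, Ccnb1 87.9 TPM against 271 and 232 TPM). In bulk RNA, fewer cycling cells and less of a transcript per cell cannot be told apart.

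Promoters of mitosis genes often hold CCAAT boxes, bound by NF-Y, and the promoters of Ccnb2 (chr9:70421555-70421654, minus strand) and Ccnb1 (chr13:100786487-100786596, minus strand) are shown for the cyclins named above (GRCm38.p6, RefSeq). Capitals mark CCAAT on the strand shown, beginning 87, 54 and 21 bases before the start of Ccnb2 and 99 and 67 bases before that of Ccnb1.
Ccnb2: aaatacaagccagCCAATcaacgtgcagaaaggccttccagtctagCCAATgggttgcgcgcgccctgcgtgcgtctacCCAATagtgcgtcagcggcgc
Ccnb1: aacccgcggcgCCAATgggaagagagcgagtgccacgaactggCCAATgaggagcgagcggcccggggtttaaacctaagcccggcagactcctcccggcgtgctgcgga
At least 1 CCAAT on either strand lay in the 250 bases before the start of 21 of 26 promoters (80.8%) matched to 25 of the 32 mitosis genes, against 33.8% of all promoters, and 2 or more in 50% against 10.1%. The p53 half-site lay in 15.4% of the 26. These shares describe the list in all lines and do not bear on how the lines differ.

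None of the DNA replication genes was called in 4716-11. Of 34 tested, 0 rose and 0 fell by the call in 4716-11 and 4711-1 and 2 fell in 4711-18, where 4.24% of all genes fell (3.06% and 2.96% in the others). The median responses were 0.31, 0.09 and -0.22. After rescaling 0, 1 and 5 fell, and the medians were 0.11, -0.05 and -0.47. The difference was above 0 for 32 of 34 members (6111 of 12828 over all genes) with a median of 0.31 (0.39 without the sgPpia#3.2 culture of 4711-18). None was called, beside 0.998% higher and 0.359% lower of all genes. Cdc6, which licenses replication origins, was the member furthest apart. It went from 18.4, 15.0 and 14 TPM to 26.5, 25.8 and 22.8 TPM in 4716-11, from 22.1, 18.8 and 12.8 TPM to 22.6, 19.5 and 15.0 TPM in 4711-1 and from 23.0, 7.46 and 19.5 TPM to 11.2, 5.73 and 10.9 TPM in 4711-18. The difference was 0.94 from the mean of the others (SE 0.15, limma adjusted p = 0.013), just under the minimum of 1, with 0.54 against 4711-1 and 1.33 against 4711-18. Ccne1, the cyclin of S phase entry in the list of cell cycle control genes, rose from 38.9, 34.3 and 37.4 TPM to 131, 123 and 119 TPM in 4716-11 (response 1.73) and by 1.31 and 0.52 in 4711-1 and 4711-18, a difference of 0.81 (SE 0.15, limma adjusted p = 0.027). Mybl2, a cell cycle factor, fell in all lines and less in 4716-11 (difference 1.08, SE 0.12, limma adjusted p = 0.0019; 0.40 against 4711-1, limma adjusted p = 0.18).

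**Figure D5:**
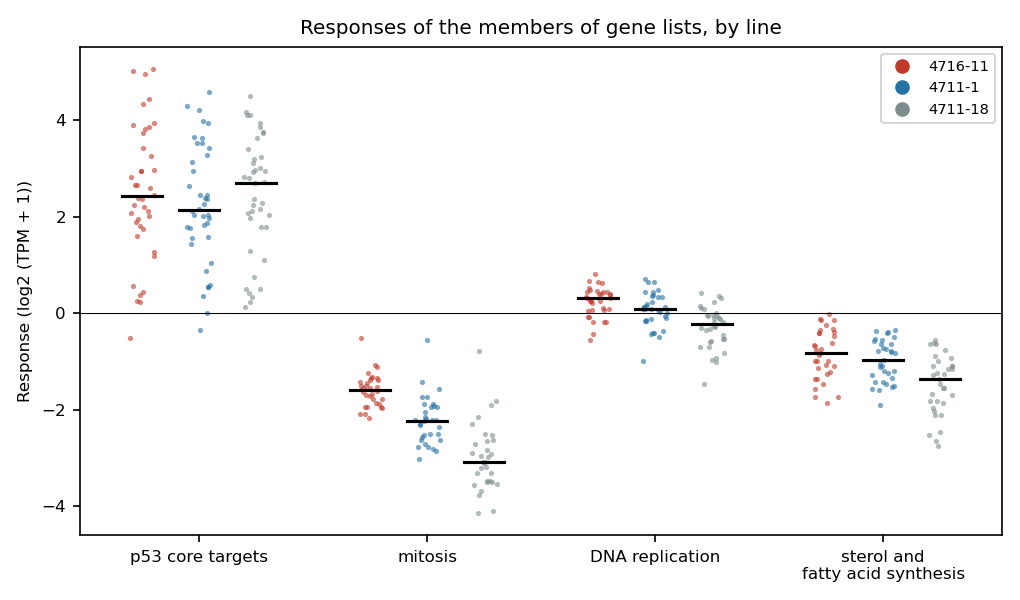
Responses of single genes (points) in 4 lists by line on the log2(TPM + 1) scale, with the list's median as a bar. Core p53 targets overlap between lines, while the medians of the mitosis list are -1.58 in 4716-11, -2.22 in 4711-1 and -3.08 in 4711-18.

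The cholesterol and fatty acid synthesis genes fell in part, 12 of 33 in 4716-11, 16 in 4711-1 and 25 in 4711-18, beside 3.06%, 2.96% and 4.24% of all genes, with median responses of -0.82, -0.96 and -1.37. The median difference was 0.29 with and 0.44 without the sgPpia#3.2 culture of 4711-18. Of 24 gut-like epithelial genes, 10 fell in 4716-11, 9 in 4711-1 and 12 in 4711-18, and none rose. The median difference of the 24 was 0.07, with 13 above 0. Only Cdh17 was called lower for the difference, beside 0.359% of all genes. Cdh17, a cadherin of intestinal epithelium, fell further in 4716-11, from 68.0, 47.0 and 56.5 TPM to 9.08, 9.13 and 6.59 TPM, than in the other lines, which ended at 21.6 through 34.8 to 43.0 TPM (difference -1.10, SE 0.19, limma adjusted p = 0.018; -0.87 against 4711-18, limma adjusted p = 0.054).

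Of 31 cytokines and secreted factors tested, 9 rose and 12 fell in 4716-11, 8 and 10 in 4711-1 and 10 and 11 in 4711-18. Over all genes 7.77% rose and 3.06% fell in 4716-11, 5.71% and 2.96% in 4711-1 and 9.43% and 4.24% in 4711-18. The largest fall of 4716-11 was outside that list. Cxcl3, a chemokine that attracts neutrophils, fell from 419, 308 and 323 TPM to 23.3, 15.3 and 7.75 TPM (response -4.52), and Ccl20, a list member which attracts lymphocytes and dendritic cells, from 81.0, 41.7 and 41.3 TPM to 4.17, 2.51 and 3.09 TPM (response -3.66). Neither was called for the difference, at -1.0 (SE 0.34, limma adjusted p = 0.15) and 0.38 (SE 0.49, limma adjusted p = 0.73). Cxcl5, another neutrophil chemokine, was the 1 list member called for the difference (0.998% of all genes were higher), and 3 were after rescaling. It was far lower in Control samples of 4716-11 (32.8, 14.3 and 17.4 TPM) than of 4711-1 (885, 310 and 1019 TPM) and 4711-18 (181, 227 and 136 TPM), and it fell in all lines, by 2.54 in 4716-11 against 4.60 and 3.39 (difference 1.46, SE 0.23, limma adjusted p = 0.013; 0.86 against 4711-18, limma adjusted p = 0.10). Hpgd, which breaks down prostaglandins, fell from 33.5, 56.4 and 31.3 TPM to 3.33, 2.04 and 1.98 TPM, with a difference of -1.76 that was not called (SE 0.45, limma adjusted p = 0.067).

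In the 6 modules of the study, which were built from p53-responsive genes of these and other lines and so give no independent evidence of direction, the counts were as follows. In Module 1, 204 of 240 genes rose, beside 7.77% of all genes, with 12 called higher and 3 lower for the difference. The 12 included Sp9 and Mesp2, which passed the minimum only through Restored 4716-11 samples. In Module 5, 62 of 100 rose, against 62 in 4711-1 and 88 in 4711-18, beside 7.77%, 5.71% and 9.43% of all genes, with median responses of 1.20, 1.26 and 1.60. In Module 3, which falls after restoration, 120 of 227 fell in 4716-11, 127 in 4711-1 and 169 in 4711-18. Over all genes 3.06%, 2.96% and 4.24% fell. For the difference from the mean, 22 were called higher, beside 0.998% of all genes. Against 4711-1 singly 1 was called higher and against 4711-18 singly 62, beside 1.11% and 1.64% of all genes. Modules 2, 4 and 6 had 1, 2 and 1 members called higher and 0, 0 and 1 lower, and the higher one of Module 6, Plekhg1, passed the minimum in the same way. The Type D signature had 1 of 107 higher and 1 lower, beside 0.998% higher and 0.359% lower over all genes. The 1 of 40 members of the Type V signature called higher, Ifitm3, passed the minimum only through Restored 4716-11 samples and is given as a description. The median differences of Modules 1, 3 and 5 were 0.08, 0.44 and -0.11 with and 0.05, 0.59 and -0.26 without the sgPpia#3.2 culture of 4711-18. That of Module 5 turned to 0.02 without the sgBgal cultures of all lines. With cultures left out in turn the median of Module 1 ranged from 0.0077, without the sgPpia#4.1 culture of 4711-1, to 0.14, and that of Module 3 from 0.34 to 0.62.

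Of 24 lists with at least 1 gene tested, 16 had no member called for the difference, which at 0.998% and 0.359% of all genes says little of lists this short. They included the BCL2 family, caspases and death receptors, necroptosis, pyroptosis and ferroptosis genes, cyclophilins, interferon and antigen presentation genes, antioxidant genes, stress response genes, autophagy genes, ribosomal proteins, and glycolysis and hypoxia genes. Within the death receptor list, Fas, the receptor of FAS ligand, was higher in level in 4716-11 both before (8.71, 7.02 and 7.41 TPM against 1.16 through 2.99 to 4.84 TPM) and after restoration (139, 126 and 110 TPM against 37.9 through 45.9 to 96.3 TPM), with a response of 3.85 that differed from the others by 0.10 (SE 0.32, limma adjusted p = 0.90). In the lists of SCLC lineage and of Notch and Wnt genes the members called were Resp18, a neuroendocrine secretory protein that rose to 8.22, 10.9 and 7.94 TPM against 0.133 through 1.41 to 4.64 TPM elsewhere (difference 1.73, SE 0.19, limma adjusted p = 0.0019), and Wnt4, which passed the minimum only through Restored 4716-11 samples.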

How the data were processed

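RNA of 18 samples was analysed: lines 4716-11, 4711-1 and 4711-18, each with 3 sgRNA cultures in a Control and a Restored state. The authors deposited TPM per gene in 1 table. The submitters' processing notes name bcl2fastq 2.17, HISAT2, mm10 and GRCm39. The study's methods give HISAT2 or the pseudoaligner Kallisto for its RNA-seq as a whole, and the notes for these 18 samples name HISAT2 and not Kallisto. The mouse genome is written as both mm10 and GRCm39, and the step from alignments to TPM is not given in the sources used here. TPM keeps no read depth, so no depth or counting error could be given.

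Genes that reached 1 TPM in 3 or more samples were tested with limma 3.58.1 (R 4.3.3) on log2(TPM + 1), with 9 culture terms and 1 Restored term per line. A call needed a p under 0.05 after Benjamini-Hochberg adjustment and a log2 change of 1 or more in either direction. Levels were compared between group means. Same-numbered Control and Restored samples came from the same sgRNA culture, and their deviations correlated at 0.15 to 0.49 in 9 of 9 cultures. Named genes were the largest responses and differences, class leaders and list members called. Some, such as Cdc6, Ccne1, Fas and Hpgd, were named after their values were seen. The members and lists were chosen with earlier results of these data known. Promoters and motif matches came from RefSeq (GRCm38.p6). The fits were tested on simulated data. Alternatives were other pseudocounts and filters, rescaling, no culture term, single comparison lines and left-out replicates. Results of some genes are not reported here.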

Additional observations from a re-analysis of the deposited data

Results flagged for a closer look

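Most of the results below stood out because the response of 4716-11 differed from that of the other lines by a test of the difference itself (limma, adjusted p under 0.05 and a log2 difference of at least 1). The difference was higher for 128 genes and lower for 46, and 55 and 8 of these also passed against each other line singly. Among 32 mitosis genes 13 were higher, beside 0.998% of all genes. Against 4711-1 singly 0 of the 32 were called, and against 4711-18 singly 26. Without the sgBgal cultures of all lines the count against the mean was 0. Of the 128, 20 reached the minimum of 1 TPM in 3 samples only through the Restored samples of 4716-11, and of the 46, 3 only through its Control samples. Sp9, Wnt4, Krt5 and Ifitm3 are among the former and Gng2 among the latter, and since they entered the test through the group where they were high, their differences are descriptions and no test supports them.

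The log2 difference, 4716-11 minus the mean of the other lines, was 3.22 for Tekt4, 3.20 for Ces2e, 2.77 for Nectin4, 2.59 for Ptprv, 2.52 for Aldh1l1, 2.48 for Ces2f, 2.32 for Inpp5d, 2.26 for Ppef1, 2.17 for Klhdc7a, 2.15 for Mmp15, 2.09 for Tnfrsf18, 2.08 for Sp9, 2.02 for Ms4a10, 1.88 for Wnt4, 1.86 for Mfsd2a, 1.83 for Krt7 and 1.73 for Resp18. It was also 1.65 for Ifitm3, 1.55 for Glyat, 1.54 for Ccnb2, 1.46 for Cenpf, 1.46 for Cxcl5, 1.45 for Kcnab2, 1.43 for Ccna2, 1.40 for Plk1, 1.36 for Ptp4a3, 1.35 for Cyp2s1, 1.31 for Kif20a, 1.30 for Ccnb1, 1.28 for C4bp, 1.25 for Krt5, 1.08 for Mybl2 and 1.00 for Lama3. Among genes with a lower response it was -1.83 for Pcdh7, -1.82 for Gng2, -1.67 for Abcg1, -1.58 for Dscaml1, -1.52 for Vcan, -1.43 for Angptl4, -1.39 for Fabp4, -1.37 for St14, -1.37 for Zfp750, -1.36 for Anxa10, -1.10 for Cdh17 and -1.02 for Pparg. Of these 45 differences, 13 kept the call without the sgPpia#4.1 cultures of all lines, and Ces2e and Tekt4 were not among them. With cultures left out in turn, the difference ranged from 3.01 to 3.40 for Ces2e and from 3.05 to 3.47 for Tekt4. Groups of 3 samples were too small for a test of single outlying samples.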

How the results depend on the processing

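Calls of the difference rest on few cultures and on 6 residual degrees of freedom, and TPM gives no depth. A pseudocount of 0.1 gave 123 genes called against 4711-1, 1114 for the Control level, 1479 for the Restored level, 31 gained and 45 stronger responses, and a mitosis median of 1.18. A pseudocount of 5 gave 548 rises and 219 falls in 4716-11, 42 higher and 22 lower for the difference, 87 against 4711-1, 123 against 4711-18, 634 and 1000 responses in 4711-1 and 4711-18, 258 and 365 for Control and Restored levels, 19 higher against each line, 19 gained, 7 lost, 9 stronger and 9 weaker, and for mitosis a median of 0.77 and a count of 5. A minimum of 5 TPM gave 120 against 4711-1, 35 higher and 4 lower against each line and 27 gained. No filter gave 29 lower, 195 against 4711-18, 4 lower against each line, 10 lost, 12 weaker and 3 mitosis genes. No minimum change gave 4294 rises and 1906 falls, 297 higher and 127 lower, 380 against 4711-1, 700 against 4711-18, 5561 and 7539 responses in those lines, 4052 and 5854 for levels, 102 higher and 32 lower against each line, 69 lost, 108 stronger and 64 weaker. Against 4711-1 alone, 9 were lost and 3 weaker, with a mitosis median of 0.66 and a count of 0. Against 4711-18 alone, 210 were higher, 88 lower and 75 weaker, with a mitosis median of 1.42 and a count of 26. The cause of these shifts was not tested.

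Without the replicate block (culture as a term), 84 genes were higher and 24 lower, 187 differed from 4711-18, 10 were lost and 6 weaker, and 1 mitosis gene was called.

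With replicates left out, rises ranged from 957 to 1001 and falls from 345 to 413. Differences ranged from 15 to 213 higher and from 4 to 108 lower, from 0 to 263 against 4711-1 and from 22 to 683 against 4711-18. Responses ranged from 959 to 1280 in 4711-1 and from 1529 to 2312 in 4711-18, and levels from 632 to 714 in Control and from 870 to 988 in Restored samples. Against each line, 0 to 79 were higher and 0 to 29 lower. Gained ranged from 4 to 72, lost from 2 to 37, stronger from 3 to 33 and weaker from 0 to 66. The mitosis median ranged from 0.90 to 1.22 and its count from 0 to 23. Of 1794 values of single genes under all alternatives, 1509 kept their direction and side of the threshold, 285 lost the call and 0 reversed. The losses were uneven, with 42 of 81 without the sgPpia#4.1 cultures of all lines, 32 without the sgBgal cultures and 5 without the sgPpia#3.2 cultures.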
